A study of Mus musculus with 202 samples.

Results

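Natural killer (NK) cells, T cells and macrophages read a tumour cell through ligands on its surface. The 9 genes described here, in mouse pancreatic cancer cells, encode such ligands or molecules grouped with them. The genes are Pvr, H2-T24, Raet1d, Raet1e, Ulbp1, Cd274, Cd200, Cd47 and Nt5e. Nt5e encodes an enzyme, and no receptor is named here for the H2-T24 product. The genes were taken by symbol from a deposited table of 28987 genes, and all 9 were found. The symbol Cd47 stands on a pair of rows, and the row with the higher mean was used. The cells came from a male KPC tumour line derived from a liver metastasis, grown in culture and used at passages 4 to 6. KPC is a genetically engineered mouse model of pancreatic cancer. After trypsin treatment an antibody against E-cadherin, the Cdh1 product that joins epithelial cells, was used to sort a positive fraction (Ecad+) from a negative fraction (Ecad-). The labels name no drug, host or allele that differs between the fractions, and no immune cells. The comparison asks whether E-cadherin-negative cells, which the study's title ties to endoplasmic reticulum stress and immune resistance, differ in these genes.

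NK cells balance activating against inhibitory receptors. NKG2D is an activating receptor whose mouse ligands include the RAE-1 proteins (Raet1 genes) and MULT-1 (Ulbp1), which stressed or transformed cells can display. PVR (CD155) binds the activating receptor DNAM-1 and the inhibitory receptors TIGIT and CD96. Checkpoint ligands restrain other cells: PD-L1 (Cd274) binds PD-1 on T cells, CD200 binds its receptor on myeloid cells, and CD47 binds SIRP alpha on phagocytes. CD73 (Nt5e) is an ectoenzyme that makes adenosine from AMP outside the cell, and adenosine dampens T and NK cells.

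Single cells gave 104 Ecad+ and 98 Ecad- libraries, in 3 library sets defined by the suffix of the library name. Libraries of 5 pairs correlated above 0.97 over all genes and were averaged, which left 100 Ecad+ and 97 Ecad- cells. The labels do not say whether cells came from separate cultures, so a fraction counts as 1 sample, its cells are not replicates, and no p-value is given. A number in the library names runs from 1 to 40 in Ecad+ and from 41 to 80 in Ecad-, so an effect tied to it cannot be told apart from the fraction. Levels are means of TPM (transcript abundance corrected for transcript length and scaled within each cell) over cells, with the SD over cells. A log2 ratio sets the Ecad- mean over the Ecad+ mean after adding 1 TPM to both, which understates the change of low genes. Genes counted as above the floor when their mean reached 5 TPM and 10% of cells or more had them above 0, as 7227 did. Over these the median log2 ratio was 0.31. Ecad- cells had fewer genes above 0 (median 8694 against 10338), and read depth is unknown. Mitochondrial genes took under 1% of TPM in 40 Ecad- cells and 1 Ecad+ cell, called low-share cells here. A band of gene numbers that both fractions fill, from 8500 to slightly past the Ecad+ median, held 59 Ecad+ and 45 Ecad- cells and is called the shared band. Cdh1 itself averaged 37.9 TPM in Ecad+ cells against 16.1 TPM in Ecad- cells. Each of the 8 epithelial markers that passed the floor had a log2 ratio under the all-gene median, yet Krt18 still averaged 1752 and 1319 TPM and Krt8 992 and 472 TPM. Of 14 immune markers, 5, including Ptprc and Tyrobp, were listed at 0 in every cell. The summed immune marker level ranged from 0 to 126 TPM in Ecad+ and from 0 to 370 TPM in Ecad- cells, and 1 immune gene, Cd68, a lysosomal membrane protein, lay above the floor. Its means were 6.35 and 30.0 TPM. Cd79a, a B cell gene, was next among immune markers, with 0.0046 and 0.715 TPM. The part of the Cd68 signal in the results was not tested.

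The 9 genes differed widely in level. Cd47 was the most abundant in both fractions, above 97.6% and 96.5% of all genes in mean TPM. Nt5e, H2-T24 and Pvr followed at 4.44 to 10.0 TPM in Ecad+ cells. In Ecad- cells the order of these 3 was H2-T24 (15.4 TPM), Pvr (14.1 TPM) and Nt5e (8.41 TPM). H2-T24 and Pvr were neighbours in both orders and did not differ beyond their SD over cells. Cd274, Raet1e, Ulbp1 and Cd200 averaged under 2 TPM in both fractions, and Raet1d was listed at 0 throughout. Only Pvr, H2-T24, Cd47 and Nt5e passed the floor. Of these 4, Pvr and H2-T24 had a log2 ratio of at least 1, against 14.2% of all genes above the floor. Both averaged under 5 TPM in Ecad+ cells and passed the floor through their Ecad- values, so the filter partly fixed this count and nothing is read from it. None had a log2 ratio of at most -1, against 4.14% of genes. Centred on the all-gene median, 7.73% of genes were higher and 7.75% lower by this fold, and Pvr and H2-T24 stood at 1.16 and 1.22.

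**Figure D1:**
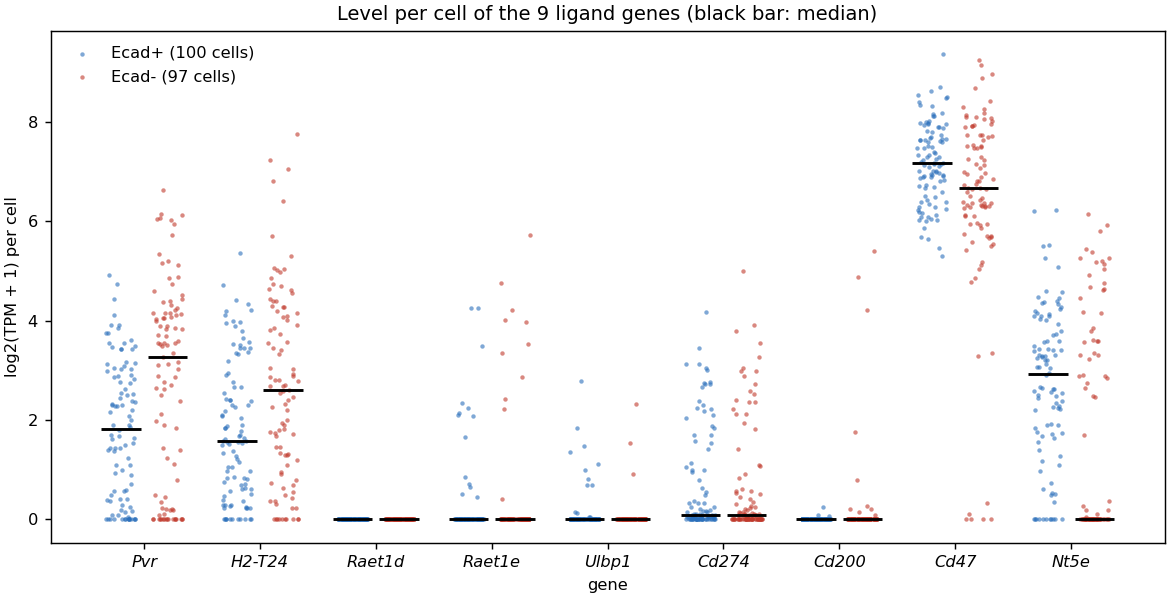
Level per cell of the 9 genes as log2(TPM + 1) on the y axis, with 1 point per cell, Ecad+ in blue and Ecad- in red, and a black bar at the median. Pvr and H2-T24 have higher medians in Ecad- cells, the Nt5e median of Ecad- cells lies at 0, and Raet1d is at 0 in every cell.

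Raet1d and Raet1e encode NKG2D ligands of the RAE-1 family and are close copies. Raet1d (ENSMUSG00000078452) is a protein-coding gene on chromosome 10 at 22360552 to 22374139 on the plus strand in mm10. The annotated Raet1e gene (ENSMUSG00000053219) spans 22158569 to 22374139 and encloses Raet1d. The coding sequences of the first listed transcript of each, 747 and 753 bases long, were 93.5% identical with 31 mismatches. Of the distinct 31-base words in Raet1d transcripts, 67.1% also occur in Raet1e transcripts. This share includes annotated overlap, since 363 of the 1441 exon bases of Raet1d, or 25.2%, are also exon bases of Raet1e. Such shared words cannot assign a read to 1 of the genes. The sequences below are the 120 coding bases in which the copies differ most, bases 451 to 570 of Raet1d and 457 to 576 of Raet1e, with the 11 mismatches in capitals.
Raet1d: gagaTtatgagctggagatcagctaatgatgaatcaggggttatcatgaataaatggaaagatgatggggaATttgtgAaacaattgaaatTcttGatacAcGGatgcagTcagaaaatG
Raet1e: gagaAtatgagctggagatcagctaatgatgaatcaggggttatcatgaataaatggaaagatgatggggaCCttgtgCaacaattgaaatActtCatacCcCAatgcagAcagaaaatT

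Raet1d was listed at 0 in all 202 libraries. A listing in 0 of 100 and 0 of 97 cells allows a share of up to 3% and 3.09% of cells with a listed value, by the limit of 3 counts, and limits no share of cells that transcribe the gene. Raet1e was detected in 14 of 100 Ecad+ cells (exact 95% Clopper-Pearson interval 7.87% to 22.4%). In Ecad- cells it was detected in 11 of 97, or 11.3% (5.80% to 19.4%). Intervals cover counting error only and take cells as independent. The lowest and median values were 0 in both fractions, and the highest were 18.1 and 51.9 TPM. The fractions overlap, and 5 cells carried 78.4% of the Raet1e sum in Ecad+ and 78.5% in Ecad- cells. Means were 0.690 ± 2.80 and 1.65 ± 6.56 TPM (SD over cells), a log2 ratio of 0.65. Where it was detected, the median was 3.26 TPM for Ecad+ cells against 10.5 TPM for Ecad- cells. Raet1e values of at least 5 TPM were seen in 3 Ecad+ and 8 Ecad- cells. Because reads of the copies could have been split or moved between them, the values of both genes are uncertain, and which copy was transcribed was not tested.

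Ulbp1, the MULT-1 gene (ENSMUSG00000079685, chromosome 10 at 7440362 to 7473638, minus strand), was near 0 in both fractions. Its transcript was detected in 14 of 100 Ecad+ cells (interval 7.87% to 22.4%). Only 3 of 97 Ecad- cells had it, a share of 3.09% (0.64% to 8.77%). The highest values were 5.92 and 4.00 TPM, and the means 0.163 ± 0.700 and 0.0701 ± 0.456 TPM. Library sets did not share this order. Set 1 had 0 of 28 Ecad+ and 2 of 33 Ecad- libraries above 0, set 2 had 7 of 39 and 1 of 32, and set 3 had 7 of 37 and 0 of 33. Within the shared band 8 of 59 Ecad+ and 1 of 45 Ecad- cells had Ulbp1.

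Of the 3 NKG2D ligand genes described here, Raet1e and Ulbp1 were each detected in a minority of cells. Any of Raet1d, Raet1e and Ulbp1 was detected in 26 of 100 Ecad+ cells (interval 17.7% to 35.7%). The count was 14 of 97 in Ecad- cells, or 14.4% (8.12% to 23.0%). Raet1e and Ulbp1 occurred together in 2 Ecad+ cells and 0 Ecad- cells. The list of NKG2D ligands had 9 genes, of which 5 have a row in the table and 0 passed the floor. H60b, another NKG2D ligand, was detected in 50 Ecad+ and 24 Ecad- cells with means of 0.282 and 0.206 TPM, and H60c was listed at 0. Both were named after their values were seen. H60b shares 5.42% of the 31-base words of Raet1e.

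Pvr, whose protein CD155 engages DNAM-1, TIGIT and CD96, was present in most cells of both fractions at a higher level in Ecad- cells. Pvr (ENSMUSG00000040511) lies on chromosome 7 at 19903578 to 19921160 on the minus strand, and 0.082% of its 31-base words occur in transcripts of other genes. In Ecad+ cells the lowest, median and highest values were 0, 2.55 and 29.2 TPM. The Ecad- cells ran from 0 through a median of 8.65 to 98.1 TPM. The ranges overlap, but the median of Ecad- cells lies above the upper quartile of Ecad+ cells, 6.59 TPM. Mean Pvr was 4.44 ± 5.49 TPM for Ecad+ cells against 14.1 ± 19.0 TPM for Ecad- cells. The log2 ratio was 1.47, with 1.16, 1.64 and 1.51 in sets 1, 2 and 3.

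The difference lay in the level of Pvr rather than in its detection. Of 100 Ecad+ cells 85 had a Pvr value above 0 (interval 76.5% to 91.4%). Of 97 Ecad- cells 80 did, or 82.5% (73.4% to 89.4%). A value of at least 5 TPM was reached by 32 Ecad+ and 59 Ecad- cells, and at least 20 TPM by 3 and 19. Cells with Pvr had a median of 3.84 TPM in the Ecad+ and 11.4 TPM in the Ecad- fraction. Without low-share cells the log2 ratio was 1.33, and within the shared band it was 1.30. It was 1.22 without mitochondrial and ribosomal protein genes, where the all-gene median was 0.0062. The difference of mean log values was 0.96 for Pvr, short of the fold of 1. Pvr and H2-T24 were each higher in Ecad- libraries in each of the 3 sets, which held for 44.9% of all genes above the floor. As both passed the floor through the Ecad- fraction, and 2 of 4 is near that share, the count is a description only. No gene of the 4 was lower in each set, against 14.8%.

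**Figure D2:**
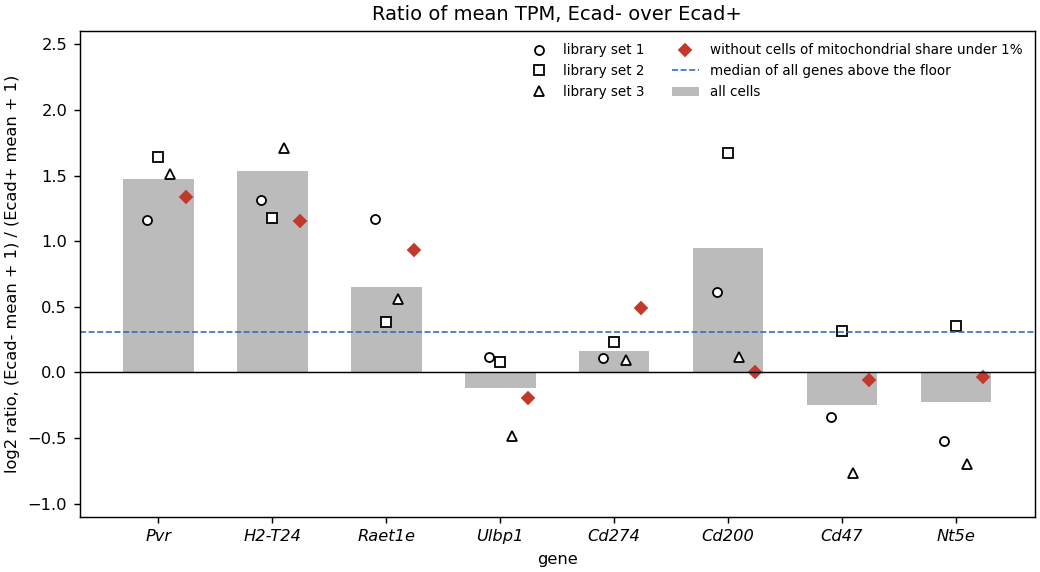
Log2 ratio of mean TPM, Ecad- over Ecad+ with 1 TPM added, for the 8 genes with a value above 0. Grey bars are all cells, open symbols the 3 library sets, red diamonds the ratio without low-share cells, and the dashed line the all-gene median of 0.31. For Pvr and H2-T24 every symbol lies above 1, while for Cd47 and Nt5e set 2 lies above 0 and sets 1 and 3 below.

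Pvr went with Ddit3, the gene of the stress factor CHOP, in opposite directions in the fractions. Ddit3 averaged 31.1 TPM in Ecad+ cells against 562 TPM in Ecad- cells. Over 97 Ecad- cells the Spearman correlation between Pvr and Ddit3 was 0.32, with 0.57, 0.03 and 0.38 in sets 1 to 3. Over 100 Ecad+ cells it was -0.28, with -0.22, -0.13 and -0.38. Without low-share cells it was 0.40 and -0.31. These are descriptions, since cells of a fraction are not replicates and may share a culture, a sort or library preparation, and read depth is unknown. With the number of genes above 0, Pvr correlated at 0.07 in Ecad- and 0.20 in Ecad+ cells.

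**Figure D3:**
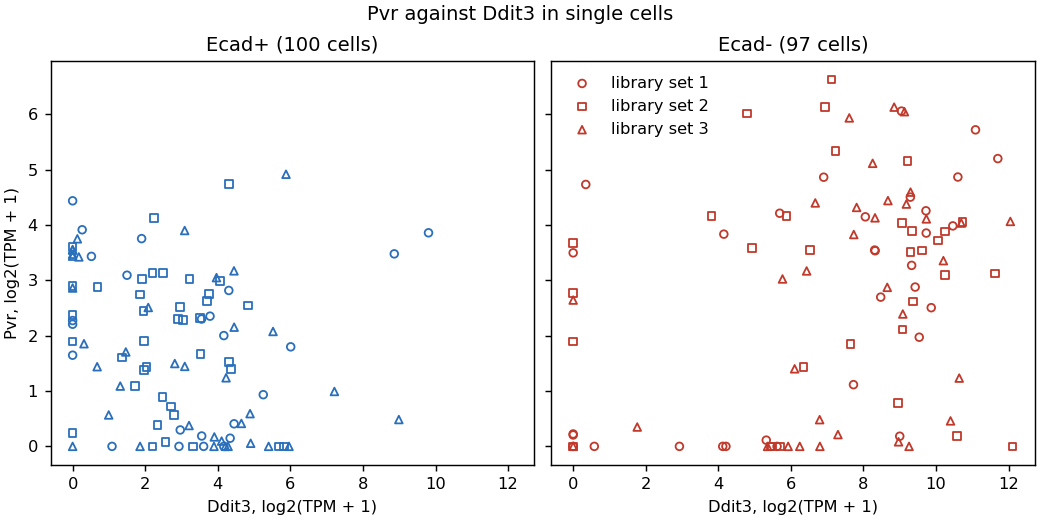
Pvr on the y axis against Ddit3 on the x axis, both as log2(TPM + 1), in Ecad+ cells (left) and Ecad- cells (right), with 1 symbol per cell by library set. Ecad- cells lie further right and reach higher Pvr values, and many cells with high Ddit3 still have Pvr near 0.

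The genes whose level ran most like Pvr, by the mean of the Spearman correlations within the fractions, were searched among 3808 genes that reached 20 TPM on average and were detected in 25% of cells or more. Cav2, a caveolin, came first at 0.35 in each fraction. Mthfd2, a mitochondrial folate enzyme, had 0.25 in Ecad+ and 0.37 in Ecad- cells. Stt3a, a catalytic subunit of the oligosaccharyltransferase, had 0.32 and 0.30. All are weak. Of the other nectin family genes only Nectin3 passed the floor, with 15.5 and 14.9 TPM and a log2 ratio of -0.06. Nectin2, another DNAM-1 and TIGIT ligand gene named after its values were seen, averaged 4.24 and 4.21 TPM. Its log2 ratio was -0.01.

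H2-T24, a nonclassical class I heavy chain gene of the T region, showed a similar shift. H2-T24 (ENSMUSG00000053835) lies on chromosome 17 at 36005695 to 36020560 on the minus strand. The lowest, median and highest values were 0, 1.97 and 40.1 TPM in Ecad+ cells. In Ecad- cells they were 0, 5.11 and 215 TPM. The fractions overlap over most of their range, and the 6 cells of at least 50 TPM were all Ecad-. Means were 4.69 ± 6.56 and 15.4 ± 32.1 TPM, a log2 ratio of 1.53 with 1.32, 1.17 and 1.71 within sets. The Ecad- mean leaned on few cells, as 5 cells held 46.1% of the sum against 26.1% in Ecad+ cells. The log2 ratio was 1.18 with a trimmed mean, 1.15 without low-share cells and 1.03 within the shared band. The difference of mean log values was 0.87, also short of the fold.

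Over all cells the detected shares of H2-T24 lay close together: 89 of 100 Ecad+ cells had it (interval 81.2% to 94.4%), as had 87 of 97 Ecad- cells, or 89.7% (81.9% to 94.9%). The sets went opposite ways, with 84.6% of Ecad+ and 96.9% of Ecad- libraries in set 2 against 91.9% and 75.8% in set 3. In set 3 the Ecad+ median was 2.18 TPM and the Ecad- median 2.55 TPM, closer than in set 1 (1.76 and 5.85 TPM) or set 2 (2.10 and 5.69 TPM). That set also held the highest cell. At least 5 TPM was reached in 28 Ecad+ and 50 Ecad- cells. H2-T24 shares 6.61% of its 31-base words with other genes, among them H2-D1, so part of its reads could have been assigned elsewhere.

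Pvr and H2-T24 were weakly correlated over cells, with a Spearman correlation of 0.14 in Ecad+ and 0.09 in Ecad- cells. By library set the Ecad+ values were -0.15, 0.41 and 0.19 and the Ecad- values -0.06, 0.25 and 0.04. The Ecad- cell with the highest Pvr, 98.1 TPM, had 28.1 TPM of H2-T24. Both reached 5 TPM in 13 of 100 Ecad+ cells (interval 7.11% to 21.2%). In Ecad- cells both did so in 29 of 97, or 29.9% (21.0% to 40.0%). At least 1 of them did so in 47 Ecad+ cells and in 80 Ecad- cells. H2-T24 had a Spearman correlation of -0.12 with Ddit3 in Ecad- and 0.15 in Ecad+ cells, unlike the 0.32 and -0.28 of Pvr. The difference between these correlations was not tested.

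The gene closest to H2-T24 was Zmynd8, a chromatin reader (0.66 in Ecad+ and 0.34 in Ecad- cells). The antisense transcript Gm13075 (0.59 and 0.37) and the gene listed as 8430427H17Rik (0.62 and 0.34) followed. H2-T24 also correlated at 0.34 with the number of genes above 0 in Ecad+ cells and at -0.09 in Ecad- cells. Other class I genes went several ways. Beside H2-T24, 5 genes of the list passed the floor, 2 with ratios over the all-gene median and 3 under it. The light chain gene B2m had a log2 ratio of 1.39 and the classical heavy chain gene H2-D1 1.20, while H2-K1, the other classical chain, stood at 0.25, the middle value of the 5 and under the all-gene median of 0.31. With H2-T24 counted, the list median was 0.73. Class I genes are close paralogs, so values of single genes are uncertain.

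Cd274, which encodes the checkpoint ligand PD-L1, was low and did not separate the fractions. Cd274 (ENSMUSG00000016496) lies on chromosome 19 at 29367455 to 29388095 on the plus strand. An antisense gene shares 14.1% of its exon bases, and reads of the genes cannot be told apart in unstranded data. The lowest, median and highest values were 0, 0.0667 and 17.1 TPM in Ecad+ cells. In Ecad- cells they were 0, 0.0647 and 31.1 TPM, an almost complete overlap. Means were 1.36 ± 2.70 and 1.65 ± 4.13 TPM, a log2 ratio of 0.16.

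Most Cd274 values above 0 were very small. Some value was listed in 69 of 100 Ecad+ cells (interval 59.0% to 77.9%). The same held for 54 of 97 Ecad- cells, or 55.7% (45.2% to 65.8%). A value of 1 TPM or more was found in 28 and 23 cells, and 5 TPM or more in 11 cells of each fraction. In the shared band the shares with any value were 64.4% and 62.2%. The sign of the log2 ratio moved with the cells used, from -0.15 in that band to 0.49 without low-share cells. No gene of the B7 and CD200 list passed the floor, of 9 with a row. The receptor gene Ifngr1, through which interferon gamma can raise PD-L1, averaged 172 and 94.9 TPM, a log2 ratio of -0.85. Ifngr2 stood at 0.23 and the kinase gene Jak1 at 0.41. In the list of PD-L1 partners and interferon input 7 genes passed the floor, 6 of them with ratios under the all-gene median, and the list median was 0.16.

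Cd200, whose protein calms myeloid cells, was rare. Cd200 (ENSMUSG00000022661) lies on chromosome 16 at 45382135 to 45409053 on the minus strand. Only 3 of 100 Ecad+ cells had any (interval 0.62% to 8.52%), none above 0.186 TPM. In Ecad- cells 10 of 97 were above 0, or 10.3% (5.06% to 18.1%), with highest values of 41.2 and 28.4 TPM. At least 1 TPM was reached in 0 Ecad+ and 4 Ecad- cells. Means were 0.00295 ± 0.0200 and 0.937 ± 5.33 TPM. Within sets 1, 2 and 3 the libraries above 0 were 1, 0 and 2 in Ecad+ and 2, 6 and 2 in Ecad-. When low-share cells were left out, 3 of 99 Ecad+ and 3 of 57 Ecad- cells were above 0, and the log2 ratio of 0.95 became 0.0065. Within the shared band 1 of 59 Ecad+ and 7 of 45 Ecad- cells had it, with a ratio of 1.07. The part of these cells' RNA quality in the Cd200 values was not tested.

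Cd47, the signal that tells phagocytes to hold back, was abundant in nearly every cell. Cd47 (ENSMUSG00000055447) lies on chromosome 16 at 49800533 to 49915010 on the plus strand. Ecad+ cells ran from 38.1 through a median of 142 to 652 TPM. Ecad- cells ran from 0 through a median of 99.9 to 607 TPM. The fractions overlap, and Ecad- cells spread more widely, with quartiles of 60.1 and 207 TPM against 99.1 and 214 TPM. Means were 168 ± 98.8 and 141 ± 122 TPM, a log2 ratio of -0.25.

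The sets did not give Cd47 1 direction. Their log2 ratios were -0.34, 0.32 and -0.77, and the ratio was 0.01 without set 3. Ecad- medians varied little, from 81.1 to 114 TPM over sets, while Ecad+ medians were 197, 103 and 176 TPM. All 100 Ecad+ cells had Cd47 (interval 96.4% to 100%), and 93 of 97 Ecad- cells did (89.8% to 98.9%). All 57 Ecad- cells that were not low-share had Cd47 above 0, and the ratio without low-share cells was -0.05. It was -0.72 within the shared band and -0.77 for mean log values. The other row with the symbol Cd47 (ENSMUSG00000079488, which is not in GENCODE M21) averaged 0.351 and 1.42 TPM. Summing both rows gave a log2 ratio of -0.24.

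Cd47 ran most like Pafah1b3, a platelet-activating factor acetylhydrolase subunit, with 0.67 in Ecad+ and 0.47 in Ecad- cells. Hsd17b10, a mitochondrial dehydrogenase, had 0.67 and 0.44, and Sqrdl, a sulfide oxidoreductase, 0.63 and 0.46. In Ecad+ cells Cd47 correlated at -0.48 with the number of genes above 0 and at -0.49 with the mitochondrial share of TPM. In Ecad- cells the same correlations were -0.03 and 0.10, and the latter was -0.44 without low-share cells. TPM is relative within a cell, and the part of the mitochondrial share in the Cd47 values was not tested. In the phagocytosis list Cd24a, another inhibitory signal to phagocytes, averaged 161 and 159 TPM (log2 ratio -0.02), and Calr, the calreticulin gene, 233 and 285 TPM (0.29). That list had 3 genes past the floor, Cd47 included, each with a ratio under the all-gene median, and its median was -0.02.

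Nt5e, the CD73 gene, differed in the share of cells more than in the mean. Nt5e (ENSMUSG00000032420) lies on chromosome 9 at 88327197 to 88372092 on the plus strand, and 0.42% of its 31-base words occur in other genes. Lowest, median and highest values were 0, 6.58 and 73.9 TPM in Ecad+ cells. In Ecad- cells they were 0, 0 and 70.0 TPM. The fractions reach the same height, but most Ecad- cells sit at 0. Nt5e was detected in 89 of 100 Ecad+ cells (interval 81.2% to 94.4%). It was detected in 44 of 97 Ecad- cells, or 45.4% (35.2% to 55.8%), a difference of -43.6 percentage points.

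This gap was seen in each set: 96.4%, 89.7% and 83.8% of Ecad+ libraries and 60.6%, 43.8% and 30.3% of Ecad- libraries were above 0 in sets 1, 2 and 3. Of the 4 genes above the floor Nt5e alone had a share lower in Ecad- cells by at least 20 points, as did 25.5% of all genes above the floor. A share lower by at least 40 points, a step chosen after the Nt5e value was seen, was found for 3.45% of genes. No gene of the 4 had a share higher by 20 points, against 0.263% of genes. The median over all genes above the floor was a difference of -10.4 points.

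**Figure D4:**
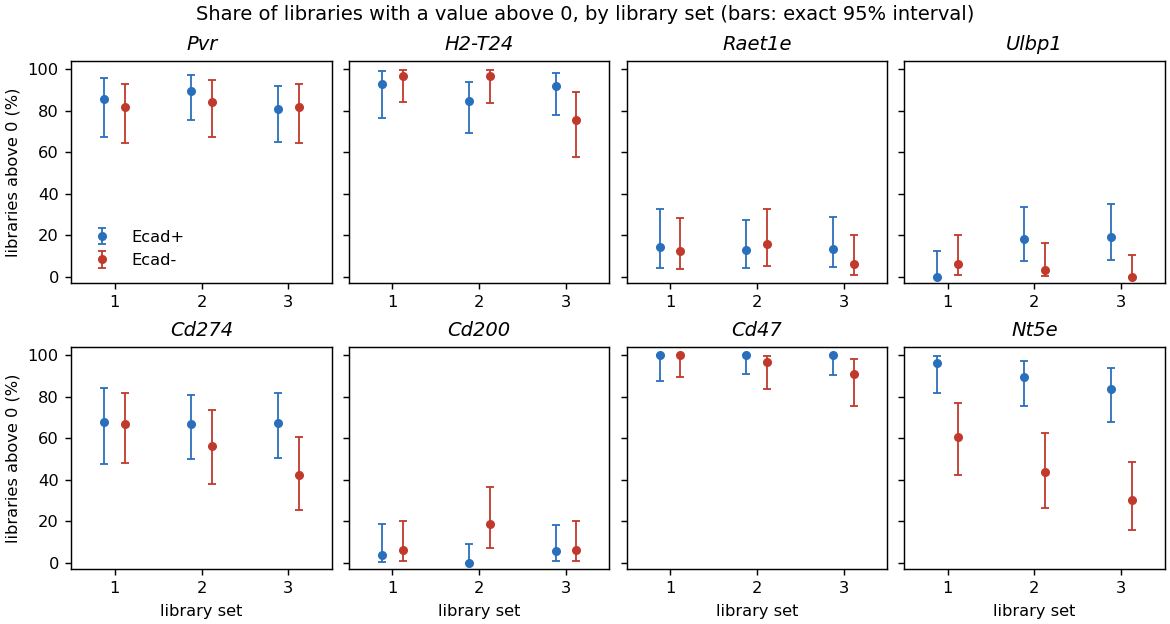
Share of libraries with a value above 0 (y axis, %) in library sets 1 to 3 (x axis), Ecad+ in blue and Ecad- in red, with exact 95% intervals that cover counting error only. For Nt5e the Ecad- share lies below the Ecad+ share in each set, whereas for Pvr the fractions lie close together.

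The lower share of Nt5e was also present among cells of like gene number. Within the shared band Nt5e was found in 51 of 59 Ecad+ cells (86.4%) and 18 of 45 Ecad- cells (40.0%). There 12.4% of genes had a share lower by 20 points and the median difference was -2.75 points. The median gene number within the band still differed, at 10130 and 8974. Without low-share cells Nt5e was above 0 in 88 of 99 and 29 of 57 cells, or 50.9% of Ecad- cells.

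Among cells with Nt5e above 0, values were higher in the Ecad- fraction. This leaves out cells at 0, which were more frequent in that fraction. Over all genes above the floor the median log2 ratio was 0.31, and 0.0062 without mitochondrial and ribosomal protein genes. The part of either in the Nt5e values was not tested. Where Nt5e was detected, its median was 8.19 TPM in Ecad+ cells, with quartiles of 3.65 and 15.3 TPM. The Ecad- median was 11.2 TPM, with quartiles of 6.08 and 29.9 TPM. At least 20 TPM was reached in 11 Ecad+ and 17 Ecad- cells. The means were thus close, 10.0 ± 12.8 and 8.41 ± 14.9 TPM, a log2 ratio of -0.23 with -0.53, 0.35 and -0.69 within sets. With means of log values, which weigh each cell's detection more, the difference was -1.09, past the fold. The ratio was -0.75 within the shared band and -0.04 without low-share cells.

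**Figure D5:**
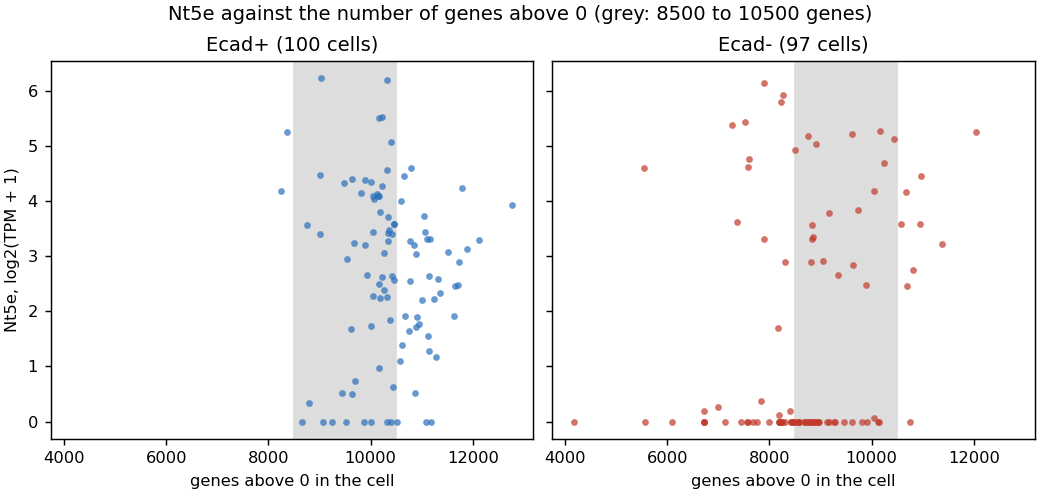
Nt5e as log2(TPM + 1) on the y axis against the number of genes above 0 on the x axis, with 1 point per cell, Ecad+ left and Ecad- right; grey marks the shared band of gene numbers. Within the grey band 40.0% of Ecad- cells and 86.4% of Ecad+ cells lie above 0.

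Within Ecad- cells Nt5e correlated with the gene number at 0.18, with the mitochondrial share at 0.12 and with Cdh1 at 0.14. Nt5e and Cd47 were weakly correlated in both fractions, at 0.34 in Ecad+ and 0.38 in Ecad- cells, and at 0.23 to 0.51 in the 6 combinations of fraction and set. Degs2, a sphingolipid desaturase, was closest to Nt5e at 0.39 and 0.42. Gipc2 followed at 0.38 and 0.42, and Itm2b, an integral membrane protein, at 0.40 and 0.39. The adenosine list had 4 genes past the floor, Nt5e included, 3 of them with ratios under the all-gene median. The median of the 4 was -0.26. Slc29a1, a nucleoside transporter, averaged 94.9 and 47.4 TPM (log2 ratio -0.99) and was lower in each set. Entpd2, an ectonucleotidase upstream of CD73, averaged 3.77 and 8.34 TPM (0.97, but -0.38 in set 2). Adk, adenosine kinase, stood at -0.29.

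Cells were also compared by how many of the 9 genes they carried. The median was 5 genes above 0 in Ecad+ and 4 in Ecad- cells, with 1 to 6 in both. The counts were 58 Ecad+ and 33 Ecad- cells with 5 or more of the genes, against 7 and 40 cells with 3 or fewer. Pvr, H2-T24, Cd274, Cd47 and Nt5e occurred together in 46 of 100 Ecad+ cells (interval 36.0% to 56.3%). They did so in 24 of 97 Ecad- cells, or 24.7% (16.5% to 34.5%). Cd274 and Nt5e were found together in 63 Ecad+ and 26 Ecad- cells. Over all genes, too, Ecad- cells had fewer above 0 (medians 8694 and 10338), and the part of this in the counts was not tested.

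Among other ligands of NK and T cell receptors 6 genes passed the floor, 4 with ratios under the all-gene median, and the list median was -0.59. Icam1, the ligand of LFA-1, had a log2 ratio of 1.30 from fewer cells, 32 Ecad- against 65 Ecad+ cells above 0. Lgals9, which encodes the TIM-3 ligand galectin-9, stood at -1.21. Cdh1, itself a KLRG1 ligand gene and the sorted protein, stood at -1.19. In the list of 9 receptor genes for these and related ligands, Pdcd1 and Sirpa were listed at 0 in every cell. Cd226 was above 0 in 1 Ecad- cell. Klrk1, the NKG2D gene, averaged 0.00068 TPM in the Ecad+ fraction and 0.184 TPM in the Ecad- fraction. It had a listed value in 1 cell of the former and 8 cells of the latter. Klrd1 averaged 0.0029 and 0.539 TPM, and Klrc1 0.446 and 0.374 TPM. Means of Cd96 and Cd200r1 were 0 TPM in the Ecad+ fraction, against 0.0301 and 0.0361 TPM in the Ecad- fraction. Only Tigit passed the floor, at 9.48 and 5.68 TPM, and was above 0 in 72 Ecad+ and 58 Ecad- cells. The source of the Tigit signal was not tested. No fibroblast or endothelial marker passed the floor, and their summed levels reached at most 5.03 and 27.4 TPM (fibroblast) and 0.0937 and 5.88 TPM (endothelial) in an Ecad+ and an Ecad- cell. Summed hepatocyte markers reached 253 TPM in an Ecad+ and 642 TPM in an Ecad- cell, with medians of 17.3 and 2.81 TPM. Of these markers, Apob averaged 20.4 and 9.11 TPM and Ttr 7.74 and 10.6 TPM. Apob had a listed value in 100 cells of the Ecad+ fraction and 58 of the Ecad- fraction. Apoa1 averaged 0.245 and 0.543 TPM and Serpina1a 0.0107 and 1.00 TPM, with Alb above 0 in 1 cell. The source of the hepatocyte marker signal was not tested.

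Promoter sequences from RefSeq (GRCm38.p6) were matched for 7 of the 9 genes, without Pvr and H2-T24. In the 250 bases before each start site, 5 motifs were searched on both strands: TTCNNNGAA (a STAT site), the interferon-stimulated response element, TGATGNAA (a CHOP and ATF4 element), the endoplasmic reticulum stress element and GGGGCGGGG (a GC box). No window of the 7 genes held any of the first 4, which occur in 7.02%, 2.98%, 3.45% and 0.113% of 32851 promoters. The GC box was found in the windows of Nt5e, Raet1d, Raet1e and Cd200 and in 10.4% of all promoters. The Raet1d and Raet1e matches lie 34 and 32 bases before the RefSeq start. The windows of Raet1d, Raet1e and Nt5e begin at 22361644, 22173247 and 88327359, inside the GENCODE spans given above. Their matches therefore do not lie upstream of the whole annotated gene.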

How the data were processed

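Per the submitters' processing notes, FastQC 0.11.5, kallisto (no version) and build mm10 were used; for the transcript index and cell filters the entry is: not given in the sources used here. SMARTer amplification on the Fluidigm C1 and Nextera XT libraries, per the labels' protocols, do not mark strand. The authors deposited log2 values; back-transformed, libraries summed to 933711 to 987134, so they were read as log2(TPM + 1). Read depth cannot be recovered from TPM, and an exact 0 says only that a gene is listed at 0. For a symbol on several rows, that with the highest mean was used; older symbols were looked up by identifier. Coordinates are from GENCODE M21 (GRCm38, the mm10 build), which holds 27458 of the identifiers. The 9 genes, the gene lists and the tests were chosen with earlier results of these data known. By rule, named genes were the 9 genes, Cdh1, Ddit3, up to 3 other genes above the floor per list with the largest absolute ratio, the 3 closest genes of each member above the floor, and the 2 highest markers per list. Some genes below the floor were named outside this rule. These are H60b, H60c, Nectin2, Ptprc, Tyrobp, the receptor genes other than Tigit, and the hepatocyte markers other than Apob and Ttr. Alternatives changed the mean, the added TPM, the scaling, the floor, the cells and the library sets. The code for the ratios was tested on simulated data. Python 3.11.15, scipy 1.17.1 and pandas 2.3.3 were used.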

Additional observations from a re-analysis of the deposited data

How the results depend on the processing

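Log2 ratios of Pvr and H2-T24 stayed above 0 under all 13 alternatives, between 0.74 and 1.64 for Pvr and between 0.79 and 1.70 for H2-T24. The number of genes higher by the fold used was 2 with all cells. It was 0 with means of log values, 0 with 10 TPM added and 0 under a floor of 20 TPM and 25% of cells, which leaves Cd47 alone. The number lower by the fold was 0, and 1 with means of log values, where Nt5e stood at -1.09. With means of log values the median of all genes was -0.28, against 0.31, and 3.21% of genes were higher and 18.1% lower by the fold. With 10 TPM added, 6.21% of genes were higher and 1.66% lower, against 14.2% and 4.14% in the main setting. No such share was computed under the floor of 20 TPM. Signs differed from the main value in 3 of 13 settings for Cd274, in 1 of 14 for Cd47 and in 1 of 13 for Ulbp1. Centred on the all-gene median, Cd274 stood at -0.14. Summing both Cd47 rows was added after the data were seen. No paired analysis was possible because numbers in the sample titles only name single cells and each fraction is 1 sample; ratios within library sets are given as values. Precision is limited by 1 sample per fraction and by unknown depth.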
